A study of Mus musculus with 8 samples.

Results

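The 10 major urinary protein genes described here are *Mup21*, *Mup20*, *Mup3*, *Mup1*, *Mup2*, *Mup7*, *Mup10*, *Mup11*, *Mup14* and *Mup17*, out of 46078 gene identifiers in the deposited count table. *Mup21* was chosen by its DESeq2 call in the comparison of genotypes described below. The other members were proposed with that call known. All differences between genotypes in the members are therefore descriptions and support nothing. Within the family, *Mup3*, *Mup20* and *Mup21* are treated as divergent copies and the other 7 members as near-identical copies. All 10 passed the filter on low counts. *Mup21* had the DESeq2 adjusted *P* of 0.00294 that singled it out, and the next member, *Mup3*, had 0.222.

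Major urinary proteins are small lipocalins, barrel-shaped secreted proteins that the hepatocyte releases into blood and the kidney passes into urine, where they carry volatile pheromones. Their genes lie in a tandem cluster of recently duplicated copies, and liver transcription of the cluster is known to respond to pulsatile growth hormone, androgens, glucocorticoids and thyroid hormone, with higher levels in males. *Mup20* encodes darcin, a male pheromone that attracts females, whereas *Mup3* and *Mup21* encode more distant relatives of the common urinary forms.

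RNA-seq of poly(A)-enriched RNA was performed on 4 LWT livers, from *Alb_cre*- *Rbfox2* LoxP/LoxP mice, and 4 LΔRbfox2 livers, from *Alb_cre*+ *Rbfox2* LoxP/LoxP mice, with 1 library per liver. Both genotypes carry the floxed alleles, and the albumin-driven Cre serves, per the study, to inactivate *Rbfox2* selectively in hepatocytes. The mice were males on a control diet, called chow in the labels, for 12 weeks per the labels and for longer per the study's methods, and livers were taken after 16 h of fasting. The comparison asks which liver genes change when hepatocytes lack the splicing factor RBFOX2.

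Total counts ranged from 37482458 to 56177588 per liver, and TMM factors, which rescale libraries so that most genes keep their level, ranged from 0.724 and 0.776 in LΔRbfox2 replicates 3 and 4 to 1.14 in LΔRbfox2 replicate 2. *Rbfox2*, the targeted gene, was at 14.3 ± 3.95 CPM (counts relative to the TMM-scaled size of the library; SD, n = 4) in LWT livers and 4.03 ± 1.68 CPM in LΔRbfox2 livers, without overlap. Hepatocyte markers were present throughout (6 markers summed, 45158 to 71786 CPM). Summed Kupffer cell, endothelial, stellate and cholangiocyte markers overlapped between genotypes. The Kupffer cell sum was 34.8 to 57.98 CPM in LWT and 19.6 to 36.9 CPM in LΔRbfox2 livers. All 4 Kupffer cell markers had a log2 fold change below 0, 2 of them at an unadjusted *P* under 0.05. By edgeR, DESeq2 or limma-voom 0 were called. *Clec4f* alone of the 4 did not overlap (27.7 ± 6.32 CPM in LWT and 16.7 ± 5.79 CPM in LΔRbfox2 livers). The share of all genes tested that were lower without overlap was not counted. Of the 4 acinar pancreas markers, *Cpa1* and *Ctrb1* had 0 counts, *Pnlip* had 1 count in each of LΔRbfox2 replicates 3 and 4, and *Cela1* was at 3.04 to 9.84 CPM, highest in the same livers. The 4 haemoglobin genes, which mark blood, summed to 338 to 681 CPM in LWT livers and 589 to 1479 CPM in LΔRbfox2 livers. They were highest in LΔRbfox2 replicates 3 and 4, and all 4 had an unadjusted *P* under 0.05 with 0 called by the same tools. Of the 4, *Hba-a1* and *Hba-a2* were higher in LΔRbfox2 livers without overlap, beside 1.05% of all genes tested. Of all genes tested, 48.4% had a log2 fold change above 0. In edgeR 9.79% of all genes tested had an unadjusted *P* under 0.05, with 1102 higher and 254 lower in LΔRbfox2 livers. In whole liver, fewer cells of a type and less RNA per cell cannot be told apart.

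A stretch of coding sequence as long as 1 sequencing read shows how the copies differ. The stretch covers coding bases 201 to 300 of *Mup2* (GENCODE M21 transcripts, GRCm38), with the best ungapped match in the other copies. Capitals mark bases that differ from *Mup2*.
Mup2: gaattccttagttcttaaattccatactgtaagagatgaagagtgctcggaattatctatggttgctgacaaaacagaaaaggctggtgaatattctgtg
Mup11: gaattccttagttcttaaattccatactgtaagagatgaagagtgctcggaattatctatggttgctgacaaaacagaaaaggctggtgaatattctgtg
Mup10: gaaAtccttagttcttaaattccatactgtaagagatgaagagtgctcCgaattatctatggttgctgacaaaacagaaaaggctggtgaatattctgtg
Mup17: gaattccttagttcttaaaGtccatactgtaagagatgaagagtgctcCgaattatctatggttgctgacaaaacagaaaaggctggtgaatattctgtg
Mup20: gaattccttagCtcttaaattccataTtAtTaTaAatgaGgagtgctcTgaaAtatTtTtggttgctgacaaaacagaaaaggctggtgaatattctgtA
Mup3: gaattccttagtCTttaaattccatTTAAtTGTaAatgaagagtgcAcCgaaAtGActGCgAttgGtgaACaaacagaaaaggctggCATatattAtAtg
Mup21: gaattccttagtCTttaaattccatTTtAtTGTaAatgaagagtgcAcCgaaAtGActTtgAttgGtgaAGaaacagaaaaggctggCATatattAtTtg
In this stretch *Mup11* was identical to *Mup2*, *Mup10* and *Mup17* each differed at 2 bases, *Mup20* at 12, *Mup21* at 24 and *Mup3* at 26. Over whole coding sequences the 7 near-identical members were 98.3% to 99.4% identical to each other. *Mup20* was 90.8% identical to *Mup2*, *Mup21* 84.3% and *Mup3* 83.2%, while *Mup3* and *Mup21* were 94.9% identical to each other. *Mup20* was 87.5% identical to *Mup3* and 88.2% to *Mup21*, less than to any near-identical member (90.1% to 91.3%). The 3 divergent genes are neighbours at one end of the cluster (GRCm38 chromosome 4, minus strand), with *Mup20* (ENSMUSG00000078672) from 62050234 to 62054158, *Mup3* (ENSMUSG00000066154) from 62083476 to 62087342 and *Mup21* (ENSMUSG00000066153) from 62147932 to 62150863.

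These differences bear on how many reads can be assigned to 1 gene. The windows are single stretches of 1 transcript per gene and the reads were paired, so the shares below do not give the part of the reads that was unique. Of the 100-base windows along the *Mup3* transcript, 97.1% occurred in no other annotated gene, and the same held for 95.5% of *Mup21* windows. *Mup20* stood lower at 61.2%, because 322 of its 829 windows also occur in the pseudogene *Mup-ps19*. Among near-identical members the share was 40.6% for *Mup17*, 16.5% for *Mup11*, 14.6% for *Mup10*, 12.9% for *Mup7*, 12.8% for *Mup1*, 8.60% for *Mup14* and 2.66% for *Mup2*. *Mup19*, a copy outside the members, had 0 such windows, yet 7183968 counts were assigned to it over the 8 livers. The counting settings for reads with several matches are not given in the sources used here, so the counts of single near-identical copies are uncertain. The RBFOX motif TGCATG, searched on the sense strand, occurred in 0 of the 10 member transcripts and in 23.1% of the 1488 protein-coding genes whose longest transcript had 677 to 984 bases. Introns were not searched.

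**Figure D1:**
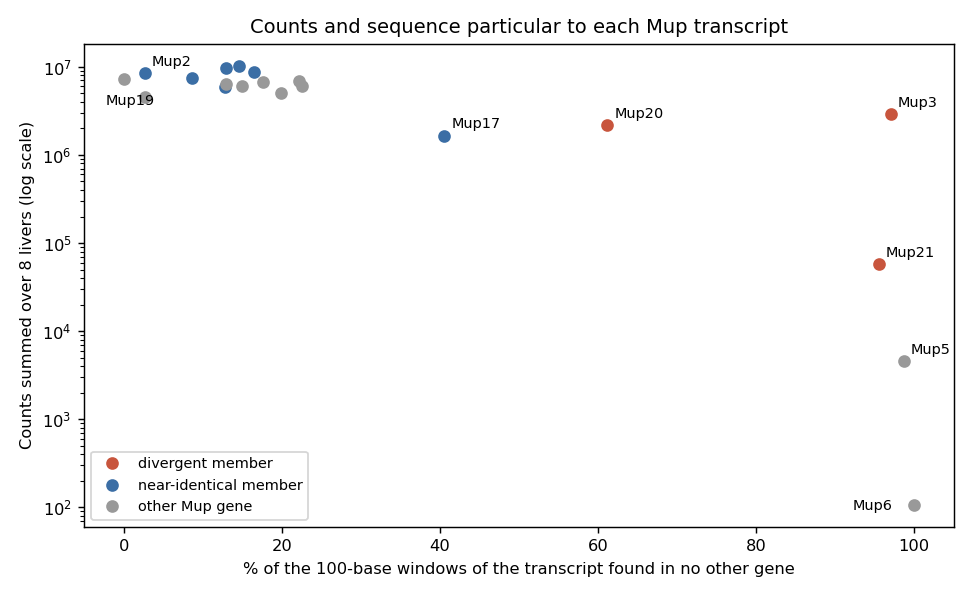
Percent of 100-base windows of each Mup transcript that occur in no other annotated gene (horizontal axis) against counts summed over the 8 livers (vertical log axis), 1 point per gene. *Mup3* and *Mup21* lie above 95% unique windows, whereas near-identical members other than *Mup17* lie under 17%, and *Mup19* has counts with 0 unique windows.

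Promoter sequences from RefSeq (GRCm38.p6) were matched by symbol for 8 of the 10 members, without *Mup1* and *Mup20*. Just ahead of the annotated start, a stretch from a shared GACCCATA to the TATATAA box differed between copies, and it is printed here for the members in which it ends before the start. All lie on the minus strand, and capitals mark the TATATAA box.
Mup2 (chr4:60139877-60139962): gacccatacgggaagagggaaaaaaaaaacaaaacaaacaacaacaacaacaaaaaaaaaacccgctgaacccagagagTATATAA
Mup10 (chr4:60582179-60582262): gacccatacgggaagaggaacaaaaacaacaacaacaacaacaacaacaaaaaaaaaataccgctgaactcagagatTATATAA
Mup17 (chr4:61595851-61595933): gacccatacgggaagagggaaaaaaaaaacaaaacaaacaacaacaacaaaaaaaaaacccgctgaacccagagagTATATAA
Mup3 (chr4:62087322-62087370): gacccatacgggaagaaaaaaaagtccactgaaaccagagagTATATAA
Mup21 (chr4:62150843-62150888): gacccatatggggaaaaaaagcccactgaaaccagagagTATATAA
An adenine-rich run separates the ends, and it is longer in near-identical copies. The whole stretch had 49 bases in *Mup3* and 46 in *Mup21*, against 74 to 86 in the 5 near-identical members in which it was found. Among Mup genes outside the members it had 50 to 85 bases. TATATAA, searched on both strands, was in 7 of the 8 member promoters and in 3.24% of 32851 promoters of the same 300-base length. The STAT5 motif TTCNNNGAA was in 0 of the 8 and in 8.30% of all, which describes this window and no other region.

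*Mup21* was the least abundant member. Its counts were 2235, 5877, 4465 and 4478 in LWT replicates 1 to 4, and 10378, 10117, 11307 and 8729 in LΔRbfox2 replicates 1 to 4. After TMM normalization these were 58.4, 118, 92.8 and 103 CPM in LWT and 237, 158, 329 and 270 CPM in LΔRbfox2. Every LΔRbfox2 liver lay above every LWT liver. The means were 93.1 ± 25.3 and 248 ± 71.3 CPM (SD, n = 4), a log2 fold change of 1.42 with a limma-voom standard error of 0.28. On total counts alone, with no TMM factor, the groups were also apart, at 59.6 to 131 CPM in LWT and 180 to 263 CPM in LΔRbfox2. The log2 fold change was lower under corrections for transcript properties, at 0.92 after a gene length correction and 0.66 after gene length and GC correction, both chosen after seeing the data.

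*Mup3* was at 4383, 6556, 6217 and 4024 CPM in LWT livers and at 9776, 6061, 14978 and 18974 CPM in LΔRbfox2 livers. Only LΔRbfox2 replicate 2 fell within the LWT range. The log2 fold change was 1.23 in edgeR and 1.15 in limma-voom, with a limma-voom standard error of 0.35. *Mup20*, the darcin gene, was at 4864, 4721, 5237 and 3199 CPM in LWT livers and at 8582, 3882, 9944 and 12332 CPM in LΔRbfox2 livers. Again replicate 2 alone overlapped the LWT livers. The log2 fold change was 0.95 in edgeR and 0.87 in limma-voom, with a limma-voom standard error of 0.34. With LΔRbfox2 replicate 4 left out, the log2 fold change of *Mup3* was 0.96 and that of *Mup20* 0.73. After gene length and GC correction they were 0.52 and 0.18.

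All 7 near-identical members overlapped between genotypes. *Mup10* was at 27139, 26232, 18661 and 21413 CPM in LWT livers and at 20870, 28382, 55485 and 43812 CPM in LΔRbfox2 livers. *Mup7* was at 43251, 11578, 21683 and 35426 CPM in LWT livers and at 17747, 16604, 47107 and 47636 CPM in LΔRbfox2 livers. LΔRbfox2 replicates 3 and 4 were above all LWT livers for both genes, replicate 2 was above them for *Mup10*, and replicate 1 lay among them for both. *Mup17*, the least abundant of the 7, ranged from 2955 to 6902 CPM in LWT and from 1642 to 10745 CPM in LΔRbfox2 livers. LΔRbfox2 replicate 3 was also the highest liver for *Mup1*, *Mup2*, *Mup11* and *Mup14*, and replicate 4 was next for the first 3 of these. Across all 8 livers the near-identical members varied 2.71-fold to 6.54-fold from the lowest to the highest liver. Their log2 fold changes were 0.21 to 0.67 in edgeR, with limma-voom standard errors of 0.31 to 0.51. The limma-voom estimates themselves were 0.086 to 0.59.

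**Figure D2:**
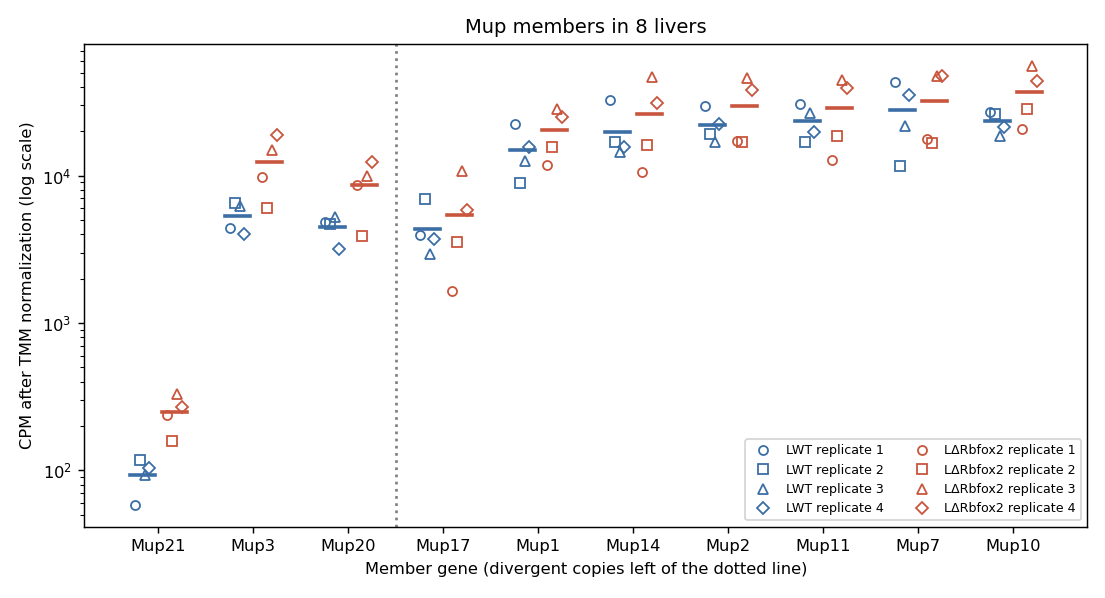
CPM after TMM normalization (vertical log axis) of each member in each liver, with 1 symbol per replicate number and a bar at each mean of 4 livers. For *Mup21* the LΔRbfox2 livers, at 158 to 329 CPM, lie above the LWT livers, at 58.4 to 118 CPM, while the genotypes overlap for the other 9 members.

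Levels can be compared between genes only per length, here that of all annotated exons of a gene together. This was 1033 bases for *Mup7*, 1391 for *Mup10* and 1584 for *Mup1*. The transcript used for the windows had 927 bases in each of these 3 genes, so the order below depends on the annotation. In LWT livers *Mup7* was highest at 27090 ± 13660 CPM per kb (SD, n = 4), followed by *Mup10* at 16794 ± 2888, *Mup2* at 16539 ± 4147, *Mup11* at 14899 ± 4017, *Mup14* at 14400 ± 6099 and *Mup1* at 9387 ± 3635. Means of neighbours in this order were closer than the larger of their SDs. That spread between livers is partly shared by the genes, and the genes were not compared liver by liver. *Mup3* at 4958 ± 1195, *Mup20* at 4855 ± 967 and *Mup17* at 4718 ± 1874 CPM per kb formed a lower group, with means closer together than their SDs. *Mup21* stood at the bottom, at 137 ± 37.4 CPM per kb.

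As a count over members, the edgeR quasi-likelihood test, with *P* adjusted (Benjamini–Hochberg) over 13856 genes, called 0 of 10 (background 0%). The 3 divergent members were at an unadjusted *P* under 0.05 (background 9.79%, with 1102 genes higher and 254 lower in LΔRbfox2 livers). DESeq2 called 1 of 10, *Mup21* (background 0.0836%), and limma-voom called 0 (background 0%). Members without overlap and higher in LΔRbfox2 numbered 1 of 10 (background 1.05%). Since the members were proposed with the *Mup21* call in this contrast known, nothing is read from these counts. The median log2 fold change was 1.23 for divergent members and 0.39 for near-identical members, a difference of 0.85, beside −0.02 for all genes tested. The spread between livers of that difference within a genotype was 0.65 (SD, log2 CPM).

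The difference between divergent and near-identical medians was 0.78 to 0.90 under every other scaling and test run, and 0.56 without LWT replicate 1 and 1.14 without LΔRbfox2 replicate 3, but the direction of the near-identical members was not kept. Their median log2 fold change was 0.22 with library sizes computed without Mup genes, 0.03 with total counts and no TMM factors, −0.01 after gene length correction and −0.26 after gene length and GC correction. Total counts without TMM factors moved the median of all genes to −0.23. For divergent members the medians were 1.05, 0.90, 0.80 and 0.52 in the same order. Without LΔRbfox2 replicate 3 the near-identical median was −0.04 and the divergent median 1.10. The haemoglobin genes moved with the same livers, at 1286 and 1479 CPM in LΔRbfox2 replicates 3 and 4. The first principal axis, the main direction in which log2 CPM of all genes tested varied between livers, held 54.1% of the variance. On it, LWT replicates 1 to 4 lay at −0.50, 0.23, 0.03 and −0.46. LΔRbfox2 replicates 1 to 4 lay at 0.13, −0.30, 0.39 and 0.47. The part of the haemoglobin genes and of this axis in the difference was not tested.

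**Figure D3:**
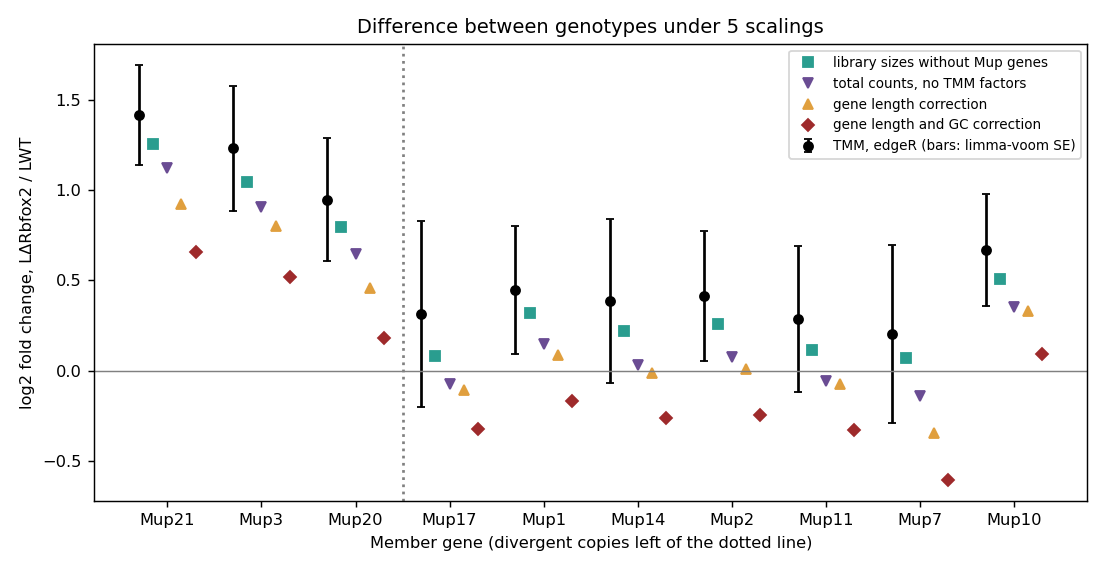
Log2 fold change of LΔRbfox2 over LWT (vertical axis) for each member under 5 scalings, with limma-voom standard errors on the first. Divergent members lie above 0 under all 5, whereas *Mup7*, *Mup11*, *Mup14* and *Mup17* fall under 0 after gene length correction, and *Mup10* is the one near-identical member above 0 after gene length and GC correction.

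The members took a large part of each library. Their share of all counts was 20.3%, 13.1%, 13.9% and 15.9% in LWT replicates 1 to 4 and 12.3%, 14.4%, 22.0% and 20.3% in LΔRbfox2 replicates 1 to 4. The genotypes overlapped, with means of 15.8% ± 3.25 and 17.2% ± 4.65 (SD, n = 4). With all 21 numbered Mup genes in the table the share was 21.4% to 43.6%. Between 8 and 9 of the 10 genes of most counts in each liver were Mup genes. For comparison, *Alb*, the albumin gene, took 3.38% to 6.13%.

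Within the members, divergent copies made up 4.67%, 9.65%, 9.21% and 5.18% of the counts in LWT replicates 1 to 4. In LΔRbfox2 livers they made up 16.8%, 8.02%, 8.31% and 12.1%. This composition does not depend on library scaling, and the genotypes overlapped in it. LΔRbfox2 replicates 2 and 3 lay within the LWT range, and replicates 1 and 4 above it. *Mup21* alone made up 0.0293% to 0.0999% of the member counts in LWT livers and 0.103% to 0.214% in LΔRbfox2 livers, without overlap, although the gap between the groups was small. Within the divergent counts, the part of *Mup21* overlapped between genotypes, at 0.627% to 1.41% in LWT and 0.856% to 1.56% in LΔRbfox2 livers.

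**Figure D4:**
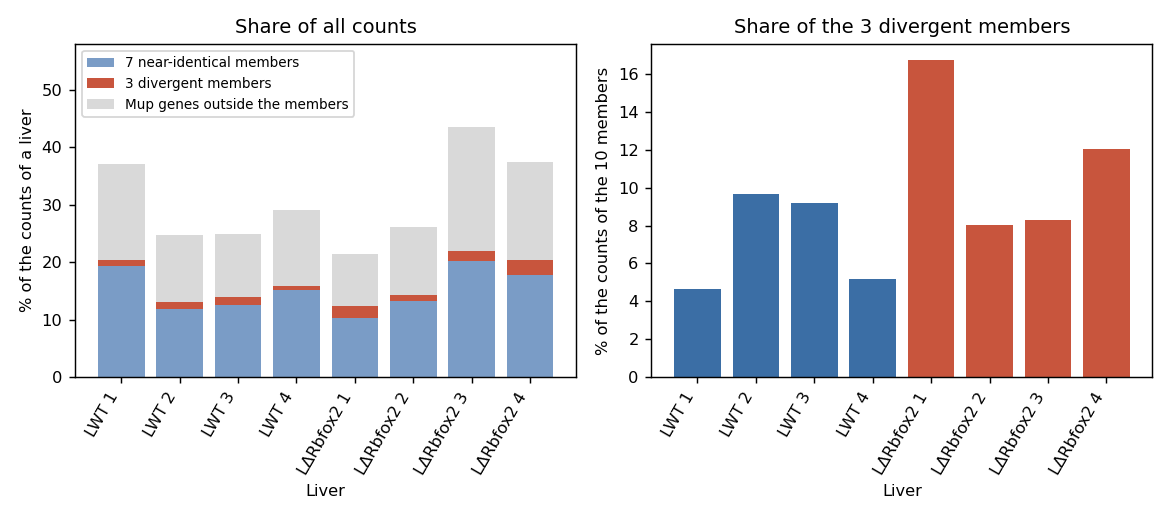
Left, percent of the counts of each liver on near-identical members, divergent members and Mup genes outside the members, as stacked bars. Right, divergent members as a percent of the counts of the 10 members. The member share overlaps between genotypes, and the divergent part runs from 4.67% in LWT replicate 1 to 16.8% in LΔRbfox2 replicate 1.

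The variation between livers of 1 genotype was also described, as deviations of log2 CPM from the genotype mean over 8 livers, which share libraries and scaling factors. Between pairs of near-identical members the median Pearson r was 0.85 (21 pairs, 0.35 to 0.95). Between pairs of divergent members it was 0.71 (3 pairs, 0.50 to 0.91), and between a divergent and a near-identical member 0.40 (21 pairs, −0.10 to 0.57). How far shared reads enter these values was not tested. The non-Mup genes closest to the summed members were *Gm8893* and *Tango2* (r = 0.97 each), *Etohd2* (0.97), *Gm21286* (0.96) and *Parp16* (0.95). Those closest to *Mup21* were *Nsmce3*, *Gm37009*, *Pcyox1* and *Slf1* (0.98 each) and *Mal* (0.97). The lists have no gene in common. These r values are the highest over all non-Mup genes tested, with only 8 livers, so values this high can arise by selection alone. Nothing is read from them or from the lack of a shared gene.

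Of the 11 numbered Mup genes in the table outside the members, 8 took at least 1% of the Mup counts. These were *Mup8*, *Mup9*, *Mup12*, *Mup13*, *Mup15*, *Mup16*, *Mup18* and *Mup19*, with means over the 8 livers of 13949 to 22144 CPM. All 8 overlapped between genotypes, with log2 fold changes of 0.34 to 0.67 on the TMM scale. The other 3 are distinct in sequence, and little expressed. *Mup5*, with 98.7% unique windows, had 4557 counts over the 8 livers and *Mup6*, with 100% unique windows, had 107. Their log2 fold changes were 0.45 and 0.26 on the TMM scale, with overlap between genotypes. Their coding sequences were 90.4% and 89.8% identical to *Mup2*, beside 90.8% for *Mup20*. The larger log2 fold changes of *Mup3*, *Mup20* and *Mup21* were thus not shared by all copies distinct in sequence. *Mup4* had 0 counts in every liver, which allows up to 0.0468 to 0.0928 CPM (3 counts, counting error only). The pseudogene *Mup-ps19*, which shares windows with *Mup20*, had 589671 counts and a log2 fold change of 1.25.

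Regulators of the cluster, other sex-biased liver genes and other lipocalins were examined in the same fit. Of the 57 genes on these 5 lists, 50 could be tested and 0 were called by edgeR, DESeq2 or limma-voom. In edgeR 11 had an unadjusted *P* under 0.05, beside 9.79% of all genes tested (1102 higher and 254 lower in LΔRbfox2 livers). In the growth hormone and STAT5 axis, 8 of 8 genes were tested, with a median log2 fold change of 0.03 and 1 at an unadjusted *P* under 0.05. The hormone receptor gene *Ghr* was at 278 ± 44.7 CPM in LWT and 317 ± 101 CPM in LΔRbfox2 livers, and the signal transducer gene *Stat5b* at 22.3 ± 6.63 and 20.3 ± 2.22 CPM. *Igf1*, the hormone's main secreted target, was at 286 ± 39.2 and 352 ± 45.6 CPM (log2 fold change 0.30), and *Igfals*, which encodes its carrier subunit, at 43.5 ± 11.2 and 45.4 ± 7.80 CPM. *Cish*, a STAT5 target that dampens the receptor, had the greatest change, with a log2 fold change of −1.44 (edgeR adjusted *P* = 0.504), and its LWT livers alone spanned 1.04 to 8.72 CPM.

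Among 13 receptors and transcription factors the median log2 fold change was −0.17, with 10 below 0. Of all genes tested, 48.4% were above 0. *Thrb*, the main thyroid hormone receptor gene of liver, was at 16.6, 14.6, 22.6 and 21.3 CPM in LWT livers and 13.4, 13.5, 10.3 and 12.8 CPM in LΔRbfox2 livers. The groups did not overlap, in this gene alone of the 13, and the log2 fold change of −0.58 did not pass the test (edgeR adjusted *P* = 0.504). The share of all genes tested that were lower without overlap was not counted. *Bcl6*, a repressor that opposes STAT5, was at 1.71 to 8.49 CPM in LWT and 4.45 to 27.7 CPM in LΔRbfox2 livers. *Nr3c1*, the glucocorticoid receptor gene, was at 39.5 ± 3.24 and 35.2 ± 3.67 CPM. *Hnf4a*, a hepatocyte identity factor, was at 477 ± 87.4 and 406 ± 82.8 CPM. *Rxra*, the partner of many nuclear receptors, was at 230 ± 51.3 and 184 ± 64.1 CPM, and *Nr1d1*, a repressor of the circadian clock, at 52.9 ± 12.8 and 46.3 ± 11.1 CPM. *Cux2* and *Onecut1*, a female-biased repressor gene and a hepatocyte factor gene, had log2 fold changes of 1.40 and −0.92 at means under 4 CPM in both genotypes, with overlap.

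Other genes whose liver level differs between the sexes were counted in the same way. Of 13 male-biased genes, 8 had a log2 fold change below 0, where 48.4% of all genes tested were above 0. The median of the list was −0.23 and 0 were called by any of the 3 tools, with 1 at an unadjusted *P* under 0.05. The most abundant, the serine protease inhibitor gene *Serpina1e*, was at 3714 ± 1568 CPM in LWT and 3815 ± 485 CPM in LΔRbfox2 livers. *Gstp1*, a glutathione transferase gene, had a log2 fold change of 0.48 and *Cyp2d9*, a steroid hydroxylase gene, −0.32. *Selenbp2*, *C4a* and *Elovl3* were at −0.77, −0.77 and −0.63. Of 13 female-biased genes, 7 could be tested, with a median of 0.36. The most abundant of them were *Acot3*, a thioesterase gene, at 51.5 ± 48.3 CPM in LWT and 32.1 ± 10.2 CPM in LΔRbfox2 livers, and *Cyp2a4*, a steroid hydroxylase gene, at 9.03 ± 2.43 and 9.17 ± 5.17 CPM. The female-biased P450 genes *Cyp3a16* and *Cyp3a44* had log2 fold changes of 1.89 each at means of 1.06 and 2.56 CPM in LΔRbfox2 livers, and did not pass the test (edgeR adjusted *P* = 0.504).

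Among 10 other lipocalins, 9 could be tested and the median log2 fold change was 0.49, with 0 called by edgeR, DESeq2 or limma-voom. At an unadjusted *P* under 0.05 in edgeR, 4 were higher and 1 lower, beside 1102 higher and 254 lower of all 13856 genes tested. *Rbp4*, the retinol carrier of plasma, was at 2644 ± 676 CPM in LWT and 3795 ± 1005 CPM in LΔRbfox2 livers. *Ambp*, the precursor of alpha-1-microglobulin, was at 999 ± 155 and 1291 ± 318 CPM, and *Orm1*, an acute phase lipocalin, at 291 ± 56.6 and 497 ± 187 CPM. *C8g*, which encodes a lipocalin subunit of complement, was at 197 ± 62.4 and 348 ± 145 CPM. *Ptgds* and *Lcn2* had the greatest changes, 3.23 and −2.34, each with 1 liver far above the rest. Around the cluster, 30 protein-coding genes other than Mup genes lie within 1 Mb, of which 21 were tested. Their median was 0.20, with a range of −0.82 to 0.74 and 0 called by any of the 3 tools. At an unadjusted *P* under 0.05 in edgeR there were 2, beside 9.79% of all genes tested. *Rgs3*, *Wdr31* and *Cdc26* were the most changed neighbours, at −0.82, −0.80 and 0.74.

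**Figure D5:**
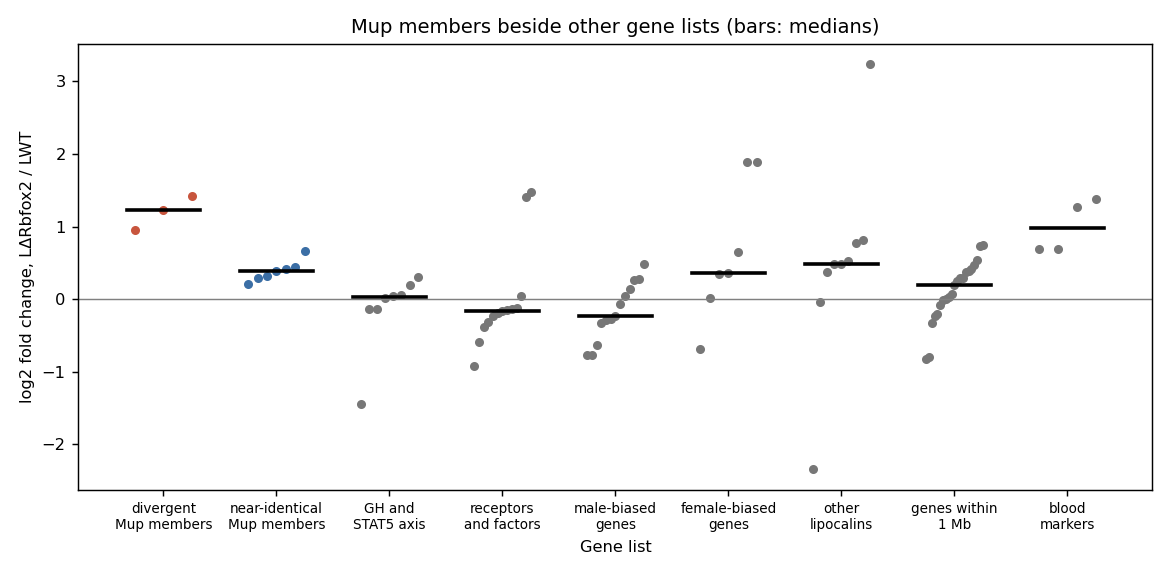
Log2 fold change of LΔRbfox2 over LWT on the TMM scale (vertical axis) for tested genes of each list, 1 point per gene, with a bar at the median. The medians are 1.23 for divergent members, 0.39 for near-identical members (−0.01 after gene length correction) and −0.23 for male-biased genes.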

How the data were processed

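RNA-seq of 8 livers was used, 4 per genotype. Per the study's methods the authors sequenced 100-base paired-end reads, aligned them to GRCm38 with TopHat2 (2.0.11 in the submitters' processing notes) and counted reads per gene with featureCounts. The deposited values are raw counts per gene, and version, strand and multi-mapping settings of the counting are not given in the sources used here. Columns carry the names that the labels give the livers. GENCODE M21 named 45229 of the 46078 identifiers. Totals were 37482458 to 56177588 counts per liver, where 3 counts correspond to 0.0468 to 0.0928 CPM. Libraries of a genotype were checked for copies (smallest chi-square per degree of freedom 97.8). Nothing in the labels says more of how mice were kept apart, so *P* values measure the spread between these livers.

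Counts were fitted in R 4.3.3 with edgeR 4.0.16: 13856 genes passed filterByExpr at its defaults (a minimum count of 10 and a minimum total of 15), libraries were scaled with TMM factors, and glmQLFTest compared genotypes with no other term, with Benjamini–Hochberg adjustment over all genes and a threshold of 0.05. Standard errors are from limma-voom (limma 3.58.1), while log2 fold changes are from edgeR unless another test is named. DESeq2 1.42.0, with genes kept by the same filter, was an alternative test. On simulated counts for 13856 genes with 200 changed, edgeR recovered 5 at a log2 fold change of 1 and 176 at 2, and DESeq2 72 and 188. Of all genes called, those not changed made up 28.6% and 5.38% for edgeR and 26.5% and 18.6% for DESeq2. Coding identity and windows of 100 bases were computed from GENCODE transcripts, with 1 transcript per gene chosen by a complete coding sequence nearest to 540 bases and then by length.

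The members, the gene lists and the tests were chosen with earlier results of these data known. Genes named are the 10 members, Mup genes with at least 1% of the Mup counts, the 3 most changed and 3 most abundant of each list or any gene of the regulator lists, the 3 most changed neighbours and the 5 genes most like the members or *Mup21*. *Mup4*, *Mup5*, *Mup6*, *Mup-ps19* and *Alb* were named after their values were seen. Alternatives were other tests and scalings, no filter, a replicate block, each liver left out and near-identical copies summed. Gene length and GC corrections (lowess, span 0.3) and total counts without TMM factors were added after seeing the data. *Mup22* has no entry in the deposited counts and entered only through its annotated sequence, as in the search for shared windows. The single result of 1 list gene is not reported here, although the list counts cover it. Python 3.11.15, numpy 2.4.6 and pandas 2.3.3 made the tables.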

Additional observations from a re-analysis of the deposited data

Results flagged for a closer look

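In groups of 4 livers, a value was set apart where its gap to the nearest liver divided by the group's range was above Dixon's 95% critical value. This held in 9 of 100 groups examined, where chance gives about 1 in 20. Of 20 groups of members 1 was set apart, *Mup14* in LWT replicate 1 at 32456 CPM, beside 14525 to 16971 CPM in the other LWT livers. *Jak2* was at 6.79 CPM in LWT replicate 2 (others 9.02 to 9.18) and *Slco1a1*, an organic anion carrier gene, at 364 CPM in LΔRbfox2 replicate 4 (others 138 to 163). The female-biased *Cyp3a41a* and *Cyp3a41b* were at 1.62 and 1.36 CPM in LWT replicate 1 (others up to 0.40 each). Among lipocalins, *Orm3* was at 2.56 CPM in LΔRbfox2 replicate 3 (others up to 0.681) and *Apom* at 96.7 CPM in LΔRbfox2 replicate 2 (others 167 to 180). *Lcn2* was at 42.5 CPM in LWT replicate 4 (others 1.43 to 2.74) and *Ptgds* at 8.42 CPM in LΔRbfox2 replicate 1 (others 0.265 to 0.897).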

How the results depend on the processing

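DESeq2 called 1 member where edgeR called 0. With near-identical copies summed to 1 gene, the median member log2 fold change was 1.09 instead of 0.43, since 3 of the 4 genes left are then divergent. Signs changed for *Mup7*, *Mup11* and *Mup17* with total counts and no TMM factors (−0.14, −0.058 and −0.073), for these 3 and *Mup14* after gene length correction (−0.34, −0.072, −0.11 and −0.015, with *Mup14* last), and for *Mup1*, *Mup2*, *Mup7*, *Mup11*, *Mup14* and *Mup17* after gene length and GC correction (−0.16, −0.25, −0.60, −0.33, −0.26 and −0.32), where the median over members was −0.21. The cause was not tested. With 1 liver left out, *Mup7* spanned −0.067 to 0.47, *Mup11* −0.038 to 0.54, *Mup14* −0.082 to 0.70 and *Mup17* −0.28 to 0.63, with the lowest values without LΔRbfox2 replicate 3. In the same way the member median spanned 0.15 to 0.70, the difference between divergent and near-identical copies 0.56 to 1.14, and the difference in the member share of counts −0.14 to 3.10 percentage points, with the lowest share difference again without LΔRbfox2 replicate 3. No member and no regulator was called by edgeR with any liver left out. *Mup21*, *Mup3*, *Mup20* and *Mup10* kept their sign under every alternative that gave a value for them (none for single members without the filter, and none for *Mup10* with copies summed). Counting all annotated Mup genes gave a share difference of 3.24 points, divergent members alone 0.79. The replicate numbers do not pair the livers (correlations of deviations 0.13, −0.61, 0.12 and −0.51), and with a replicate block 0 members were called, the member median was 0.38 and the difference between copies 0.87. At 4 livers per genotype, simulated log2 changes of 1 were mostly missed by edgeR.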
